A study of Homo sapiens with 16 samples.

Results

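Neuronal genes, among them known targets of the repressor REST, were examined in clear cell renal cell carcinoma (ccRCC) cells carrying guides against KDM5C or KDM5D. The set held 39 genes, chosen by name: REST itself, its corepressor RCOR1, and 37 neuronal, synaptic or neuroendocrine genes. Of these, 38 were found among the 57773 genes of the count table and 34 had the 60 counts over all libraries that were required for testing. The neurofilament gene NEFL could not be matched to a row. STMN2 (0 counts in all 16 libraries), SYT4 (5 counts in all), INA (13) and GAP43 (55) were matched but not tested.

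REST is a zinc finger protein that binds a DNA element called RE1 and keeps neuronal genes off outside the nervous system. It recruits corepressors, among them RCOR1 (CoREST), which bring histone deacetylases and demethylases to the element. KDM5C and its Y chromosome homologue KDM5D remove methyl groups from lysine 4 of histone H3, and KDM5C has been found in complexes with REST, which is why these genes were looked at in KDM5C mutant cells.

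Bulk RNA-seq was performed on 4 established human ccRCC lines (CAKI-2, 786-O, 769-P and A498), all of which expressed Cas9 and a guide RNA from lentiviruses. The cells were transduced populations and not clones. The study describes puromycin selection for the cells with guides against KDM5C, and does not name the drug for those against KDM5D. Every line had 1 library with a non-targeting guide (sgCtrl) and 2 with guides against KDM5C (sgKDM5C 4 and sgKDM5C 5), and 786-O and CAKI-2 also had 2 with guides against KDM5D (sgKDM5D 2 and sgKDM5D 4). The 2 guides of a target served as the replicates, each control stood alone, and libraries held 23.4M to 41.6M counts. KDM5C transcript in the sgKDM5C libraries was at 26.2% to 57.3% of the control of the line, against 91.5% to 106% in the libraries labelled sgKDM5D. KDM5D transcript in the latter was at 76.2% to 103% of control, so its level does not check that label, and A498 and 769-P had 0 or 1 count of it in each library.

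RE1 sequences were searched first, because they are what makes a gene a candidate REST target. The RE1 consensus (17 letters, exact match, both strands of GRCh37) was found within 5 kb of the gene start for 6 of the 38 genes (15.8%), against 124 of 19404 protein-coding genes (0.639%). With the gene body and 5 kb on both sides as the window, 15 of 38 genes (39.5%) and 521 of 19404 (2.69%) held it. Known REST targets were included in the set by choice, so shares above the background do not stand as an independent result. The window was longer for the neuronal genes, whose median length was 56987.5 bases against 27621 for all protein-coding genes. The 5 matches near a start that are shown first belong to genes of very different levels in these lines, and those of NRXN3, NPTXR and DLG4 follow because these genes are described with the guides below. Capitals mark the letters matched, 5 flanking bases are in lower case, and every sequence reads 5′ to 3′ in the orientation of the consensus.
SYN1, upstream of the gene, chrX:47479473-47479489, minus strand: ccagcTTCAGCACCGCGGACAGtgcct
CHGA, intron, chr14:93389868-93389884, plus strand: gagttTTCAGCACCGCGGACAGcgcct
GRIN1, untranslated exon, chr9:140033712-140033728, plus strand: cccgcTTCAGCACCGCGGACAGcgccg
BDNF, untranslated exon, chr11:27742227-27742243, minus strand: gtccaTTCAGCACCTTGGACAGagcca
SYT4, untranslated exon, chr18:40857262-40857278, minus strand: ttcccTTCAGCACCTCGGACAGaacac
NRXN3, intron, chr14:78913336-78913352, minus strand: ctgtgTTTAGCACCATGGACAGaaaca
NRXN3, intron, chr14:78986388-78986404, minus strand: gatgtTTCAGCACCATGGAGAGgtcca
NRXN3, intron, chr14:78996589-78996605, plus strand: agattTTCAGCACCGTGGACAGaggca
NPTXR, intron, chr22:39220693-39220709, minus strand: aggaaTTCAGCACCCTGGACAGggcat
DLG4, untranslated exon, chr17:7095110-7095126, minus strand: ctcccTTCAGAACCCTGGACAGcggtt

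SYN1, CHGA and GRIN1 held the same 17 letters. The other genes with a match were STMN2, for which no sequence is shown, CACNA1A, CACNA1H, L1CAM, SNAP25, STMN3 and UNC13A. The letters were not found in these windows for RYR2, NETO1 or SCN2A, 3 genes that return below. In the RefSeq promoter table (GRCh38.p14, 250 bases before to 50 after a start), SYN1 was the 1 gene with a match among the 28 of the set that the table held, against 7 of 27305 genes in all. A match describes the sequence and does not show that REST binds there. The exact search also misses elements that differ from the consensus in any letter. A gene without a match, SCN2A included, is therefore not shown to lack an RE1.

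The first question was which of these genes were on in which line. A gene was called on in a line when it had at least 1 CPM (count per M of the library total, scaled by TMM factors) in each sgCtrl and sgKDM5C library of the line. Of the 34 genes tested, 26 (76.5%) were on in CAKI-2 and 24 (70.6%) in A498, but 17 (50%) in 786-O and 15 (44.1%) in 769-P. Among all 20175 genes tested, 69.1%, 69.3%, 61.3% and 61.7% were on in CAKI-2, A498, 786-O and 769-P. The neuronal share thus lay somewhat above the background in CAKI-2, close to it in A498, and below it in 786-O and 769-P. Altogether 10 genes were on in all 4 lines: REST, RCOR1, STMN3, NETO2, BDNF, VGF, L1CAM, STX1A, DLG4 and NPTXR. Another 7 were on in 3 lines (SNAP25, CACNA1H, CELSR3, SYT1, TUBB3, BRINP1, RYR2), 7 in 2 lines (SCN2A, SCN8A, CACNA1A, CACNA1C, NRXN3, CHGA, UNC13A) and 7 in 1 line (SYP, SCN3A, NRXN2, NETO1, GRIN1, SCG2, NEFM). SYN1, CHGB and SCG3, like the 4 matched genes that were not tested, were on in none.

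**Figure D1:**
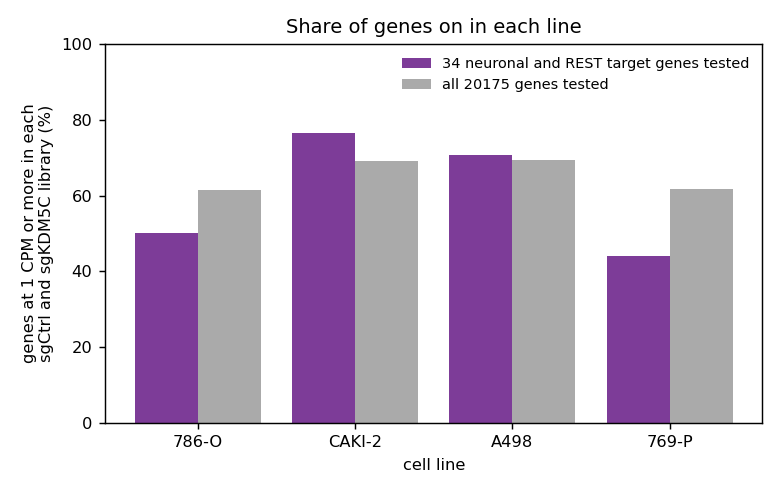
Share of genes with at least 1 CPM in each sgCtrl and sgKDM5C library of a line, as bars, for the 34 neuronal and REST target genes tested and for all 20175 genes tested (vertical axis, percent; horizontal axis, cell line). The neuronal share was 76.5% in CAKI-2 and 70.6% in A498, and 50% in 786-O and 44.1% in 769-P.

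The level differed between lines for 33 of the 34 genes at an adjusted p under 0.05 (edgeR quasi-likelihood F-test), where the background was 91.5% of all genes, so that a difference between lines was the rule for any gene. The exception was SYP, a protein of synaptic vesicles (adjusted p = 0.0590). CAKI-2 had the highest level for 15 of the 34 genes (background 24.8%) and A498 for 12 (31.8%), against 5 for 786-O (20%) and 2 for 769-P (23.5%). RYR2, counted for CAKI-2, averaged 47.4 CPM there and 47.3 in 769-P. Against 769-P, 25 genes were higher and 5 lower in CAKI-2 (background called in either direction 65.8%). In A498, 21 were higher and 7 lower than in 769-P (background 71.1%). The background is not split by direction, so these counts do not show whether the skew is particular to the set.

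**Figure D2:**
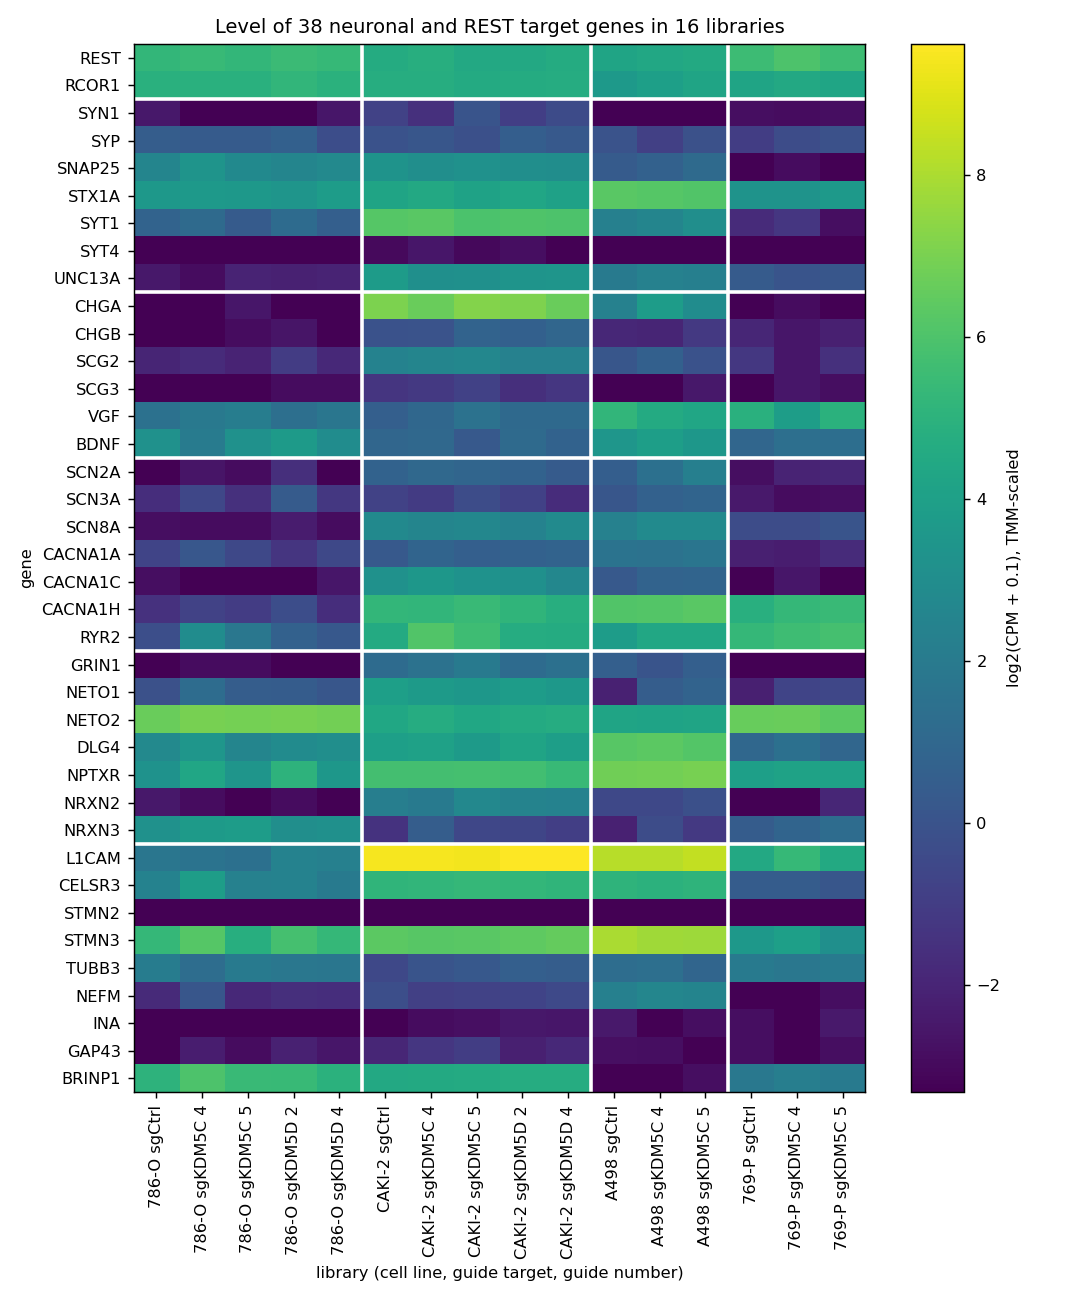
Level of the 38 genes found (rows, grouped by role) in the 16 libraries (columns, grouped by line), as log2(CPM + 0.1) on the colour scale. Colours compare libraries within a gene and not genes with each other, since CPM are not corrected for gene length. CHGA, SYT1 and L1CAM stood out in CAKI-2, STX1A, DLG4 and NPTXR in A498, and STMN2 was at 0 throughout.

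REST and RCOR1, the repressor and its corepressor, were on everywhere but not equally. REST averaged 53.0 ± 9.27 CPM in 769-P, 39.5 ± 2.71 in 786-O, 25.2 ± 2.56 in CAKI-2 and 21.0 ± 2.32 in A498 (mean ± SD of the sgCtrl library and both sgKDM5C libraries, n = 3). The last pair did not differ (log2 difference 0.27, SE 0.137, adjusted p = 0.0994), whereas the other neighbours did. RCOR1 averaged 29.6 ± 0.17 CPM in 786-O and 25.7 ± 1.38 in CAKI-2, above 769-P with 20.2 ± 1.92 and A498 with 15.6 ± 3.27, and 786-O and CAKI-2 did not differ (adjusted p = 0.172). The lines with less REST transcript, CAKI-2 and A498, were those in which more of the genes were on. More of all genes tested were on there too, 69.1% and 69.3% against 61.3% in 786-O and 61.7% in 769-P. With 4 lines, setting REST beside these counts is a description, and no relation was tested. Exons of REST and of 13 other genes of the set (BDNF, DLG4, SYN1, SYP, SCN3A, SCN8A, CACNA1C, CACNA1H, NRXN2, L1CAM, SYT1, NEFM and INA) overlap genes on the other strand, and whether reads were counted by strand is not given in the sources used here.

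Genes of the synaptic vesicle and its release machinery differed in kind between lines. SYT1, the calcium sensor of vesicle fusion, was at 61.0 to 79.4 CPM in the 5 CAKI-2 libraries, 4.89 to 8.22 in A498, 1.22 to 2.17 in 786-O and 0.0411 to 0.320 in 769-P. STX1A, a membrane protein of the fusion complex, was highest in A498 (68.8 to 80.1 CPM) and did not differ between 786-O and 769-P (adjusted p = 0.359). SNAP25, its partner in the complex, was at 8.06 to 9.78 CPM in CAKI-2 and 5.79 to 10.3 in 786-O, which did not differ (adjusted p = 0.261), and at 0 or 1 count in each 769-P library. UNC13A, which primes vesicles, reached 8.58 to 13.7 CPM in CAKI-2 and 4 to 4.99 in A498. SYN1, a vesicle phosphoprotein with the upstream RE1 match shown above, stayed under 1 CPM in every library, with its highest values in CAKI-2 (0.244 to 0.921).

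Among the secretory granule genes, CHGA, chromogranin A of the dense core granule, was at 102 to 148 CPM in CAKI-2 (2890 to 6436 counts) and 5.06 to 14 in A498, but had 0 to 2 counts in each 786-O and 769-P library. Per kb of exon, CHGA in CAKI-2 averaged 42.4 CPM, against 2.94 in A498. Its relatives followed CAKI-2 at lower levels: SCG2 was at 5.09 to 6.22 CPM there and CHGB at 0.874 to 1.84. VGF, a precursor of neuroendocrine peptides, had another order, with 19.8 to 37 CPM in A498 and 14.8 to 31.2 in 769-P, which did not differ (adjusted p = 0.806), and 1.39 to 2.83 in CAKI-2. BDNF, a neurotrophin, was at 10.9 to 15.1 CPM in A498, 4.10 to 13.2 in 786-O and under 3 in the other two lines.

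Ion channels were mostly low. The sodium channel genes SCN8A (5.30 to 7.25 CPM in CAKI-2, 5.15 to 7.32 in A498, adjusted p of the difference 0.887) and SCN2A (1.24 to 1.99 and 1.36 to 4.76) were on in the same lines and near 0 in 786-O. CACNA1H, a T-type calcium channel, was at 70.1 to 79.3 CPM in A498, 27.2 to 43.7 in CAKI-2 and 28.7 to 43.5 in 769-P, but at 0.221 to 0.723 in 786-O. RYR2, a calcium release channel of the endoplasmic reticulum best known from heart muscle, was lowest in 786-O. Its mean over the sgCtrl and sgKDM5C libraries did not differ between CAKI-2 and 769-P (adjusted p = 0.710). In CAKI-2 both sgKDM5C libraries lay far above the control, as given below, so this mean does not compare the control levels.

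Postsynaptic and adhesion genes completed the pattern. DLG4, the scaffold protein PSD-95, was at 70.6 to 83.5 CPM in A498, 13.4 to 18.6 in CAKI-2, 5.82 to 11.1 in 786-O and 1.81 to 2.67 in 769-P. GRIN1, the obligatory subunit of NMDA receptors, was on in CAKI-2 (2.18 to 3.89 CPM) and near the 1 CPM limit in A498 (0.938 to 1.41), and had 0 or 1 count in each library of the other lines. NETO1 and NETO2, auxiliary subunits of glutamate receptors, were highest in different lines: NETO1 was highest in CAKI-2 (11.3 to 15.8 CPM), whereas NETO2 was highest in 786-O (103 to 127) and 769-P (82.4 to 102). L1CAM, an axonal adhesion molecule, was at 678 to 789 CPM in CAKI-2 and 300.4 to 342 in A498, against 22.7 to 41.1 in 769-P and 2.62 to 5.16 in 786-O. With 94.6 CPM per kb of exon in CAKI-2 it was the gene of the set with the highest level per length in any line. BRINP1, which restrains the cell cycle of neuronal cells, was at 31.2 to 64.3 CPM in 786-O and 22.4 to 25.9 in CAKI-2, and had 0 or 1 count in each A498 library.

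Markers of other cell types were read beside these levels. The neuronal lineage list (14 genes, of which 6 to 10 were at 0 counts in a library) summed to 144 to 180 CPM in CAKI-2 and 42.6 to 48.5 in A498, against 5.43 to 8.51 in 786-O and 4.37 to 5.31 in 769-P. Most of the sum was MAP2, a microtubule protein (132 to 161 CPM in CAKI-2), and RBFOX3 reached 8.06 to 16.9 there. Among the transcription factors of the list, NEUROD1 and INSM1 had at most 0.0426 CPM in any library, whereas MYT1 was at 0.826 to 1.03 CPM in A498 and 0.507 to 0.884 in CAKI-2. NEUROG2 reached 0.585, POU3F2 0.492 and SOX2 0.819 CPM in CAKI-2. Renal PAX8 was at 145 to 968 CPM and keratin gene KRT8 at 889 to 2467 in all libraries, whereas CA9, a hypoxia gene typical of ccRCC, was at 5.55 to 9.53 CPM in A498 and at or under 0.0698 in the other lines. The 10 genes matched of the kidney and ccRCC list had summed levels of 2780 to 4824 CPM, much of it from KRT8 and VIM (586 to 2604 CPM). Of the same list, the transporter gene SLC34A1 was at 0.170 to 1.93 CPM and EPCAM at 0.296 to 22.9 CPM. In bulk libraries, fewer cells of a type and less RNA per cell cannot be told apart, and the part of the neuronal markers in the line differences was not tested.

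The second question was whether guides against KDM5C raised these genes. RYR2, NETO1, NRXN3, SCN2A and CHGA were each higher with the guides past the thresholds of the study (unadjusted p under 0.05, and log2 fold change over 1 or under -1) in 1 to 3 of the lines. No gene of the set passed an adjusted p of 0.05 in any single line with edgeR. In 786-O, 2 of 34 were higher past the study thresholds, RYR2 and NETO1, where the background of higher genes was 1.28%. Both had been noticed in earlier results of these data. Counts that include them, here and below, are therefore not independent of that choice. Of the 34, 3 had an unadjusted p under 0.05 (background 2.92%, adjusted 0.00991%). In CAKI-2, 2 of 34 were higher past these thresholds, RYR2 and NRXN3 (background 0.808%), and 3 had an unadjusted p under 0.05 (background 1.94%, adjusted 0%). In A498, 4 of 34 were higher past them, NETO1, NRXN3, SCN2A and CHGA (background 1.02%), and 5 had an unadjusted p under 0.05 (background 5.55%, adjusted 0.00496%). In 769-P this held for 1 of 34, NETO1 (background 1.45%), the 1 gene with an unadjusted p under 0.05 (background 3.32%, adjusted 0.00496%). None was past them in the lower direction. DESeq2 called 1 gene of the set at an adjusted p under 0.05 in 786-O, RYR2, and 0 in the other lines.

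For the mean effect over the 4 lines, 31 of 34 log2 fold changes were above 0, with a median of 0.186. For all genes, 57.7% were above 0 and the median was 0.037. A fitted value is uncertain where a group of libraries has 0 counts, and without the 11 genes with such a group 21 of 23 were above 0, with a median of 0.111. The adjusted threshold was passed by none of the 34 with edgeR (background 0.00991%) and by 2 with DESeq2 (RYR2 and NETO1), and 4 had an unadjusted p under 0.05 with edgeR (background 5.18%). RYR2, NETO1, NRXN3 and SCN2A passed the study thresholds, all higher, where 0.976% of all genes did. Within lines, 25 of 34 were above 0 in 786-O (background 49.6%), 26 in A498 (52.5%), 23 in 769-P (52%) and 22 in CAKI-2 (49.8%). The medians were 0.337, 0.258, 0.254 and 0.075, and those of all genes 0.000, 0.023, 0.018 and 0.000. Without the genes that had 0 counts in the control or in both sgKDM5C libraries, the medians were 0.321 over 27 genes in 786-O, 0.254 over 31 in A498 and 0.182 over 27 in 769-P. Without sgKDM5C 4 of 786-O its median was 0.016, with 19 of 34 above 0, and that of the mean effect was 0.118. The A498 median was 0.110 without sgKDM5C 5 and the 769-P median 0.10 without sgKDM5C 4. The effect of guides against KDM5C differed between lines for none of the 34 at an adjusted p under 0.05 with edgeR (background 0%) and for 1 with DESeq2, and 3 had an unadjusted p under 0.05 (background 2.29%). RYR2, NRXN3 and SCN2A were above the control of the line in 8 of 8 sgKDM5C libraries (3 of 34 genes, background 1.24%), and no gene was below it in all 8 (background 1.67%).

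RYR2 had the largest mean log2 fold change per standard error of the 34 genes. In 786-O it was at 0.752 CPM in the control (20 counts), 7.69 in sgKDM5C 4 and 3.45 in sgKDM5C 5. In CAKI-2 it was at 24.2 CPM in the control, 69.0 in sgKDM5C 4 and 49.0 in sgKDM5C 5. Both sgKDM5C libraries lay above the control in these lines and also, by less, in A498 (14.3 CPM against 21.5 in both) and 769-P (38.8 CPM against 48.1 and 54.9). The gene spans chr1:237205484-237997288 on the plus strand (GRCh37), and no annotated gene overlaps its exons. The log2 fold change was 2.88 in 786-O (SE 0.490, edgeR adjusted p = 0.116), 1.28 in CAKI-2 (SE 0.340, adjusted p = 1), 0.59 in A498 (SE 0.340) and 0.41 in 769-P (SE 0.327). The mean over lines was 1.29 (SE 0.192, adjusted p = 0.0588), and the difference between lines had an unadjusted p of 0.00473 and an adjusted p of 1. Over 23 alternatives the mean effect ranged from 0.76 to 1.58, with the low end without 786-O, and passed the adjusted threshold in 8.

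NETO1 lay above its control in the lines where it was low. In A498 it had 3 counts in the control (0.128 CPM) and 35 and 43 counts with guides 4 and 5 (1.31 and 1.64 CPM). In 769-P it had 3 counts (0.124 CPM) against 15 and 14 (0.533 and 0.576 CPM), and in 786-O 0.827 CPM against 2.26 and 1.29. An annotated gene overlaps its exons on the same strand, so its reads may be shared. CAKI-2, where the gene was highest, went the other way, with 15.8 CPM in the control against 13 and 11.3. The log2 fold change was 3.49 in A498 (SE 0.625, edgeR adjusted p = 0.280), 2.12 in 769-P (SE 0.706), 1.10 in 786-O (SE 0.414) and -0.39 in CAKI-2 (SE 0.296), each of the last 3 with an adjusted p of 1. From the counts alone, the ratio of CPM to the control was 11.5 in A498 (95% exact interval 3.81 to 57.2) and 4.48 in 769-P (1.39 to 23), intervals that cover counting error only. The mean over lines was 1.58 (SE 0.272, adjusted p = 0.117), and 0.95 without A498. RYR2 and NETO1 had been noticed in earlier results of these data, so their values here, and counts of genes that include them, are not independent of that choice.

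**Figure D3:**
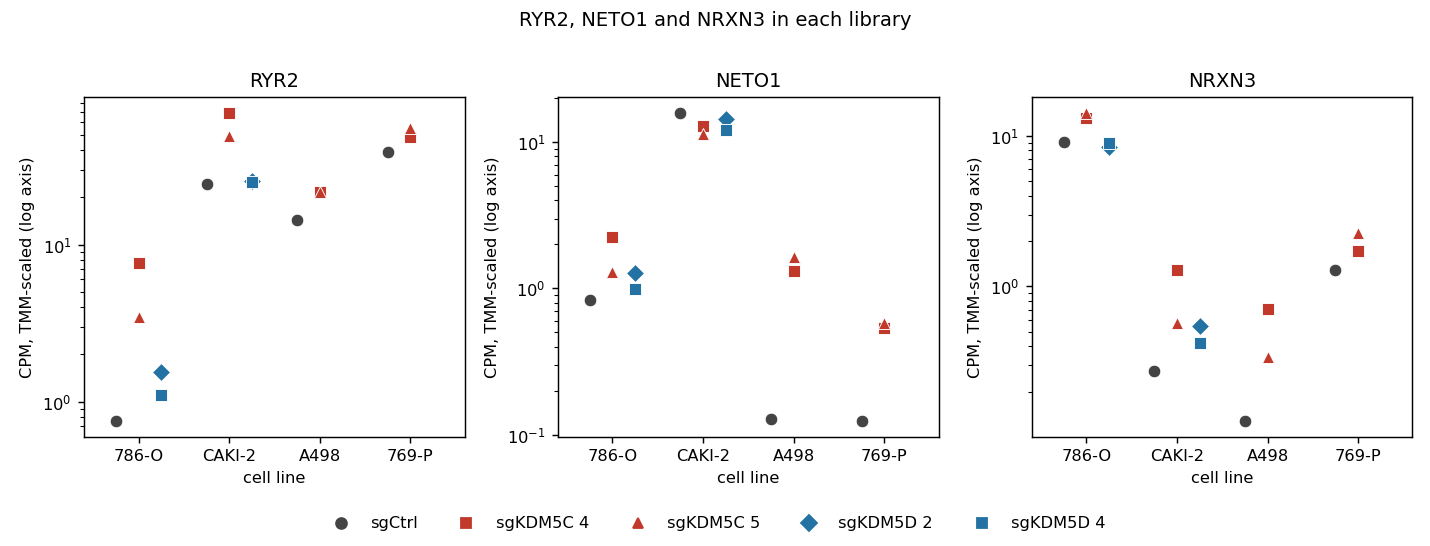
Levels of RYR2, NETO1 and NRXN3 (1 panel each) in every library, as TMM-scaled CPM on a log axis, by cell line, with 1 point per library, the colour giving the guide's target and the shape the guide. For RYR2 and NRXN3 all 8 sgKDM5C points lie above the control of their line, and for NETO1 the 2 in CAKI-2 lie below it.

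NRXN3 encodes a presynaptic adhesion protein, a neurexin, and holds the 3 intronic RE1 matches shown above. It was at 9.10 CPM in the 786-O control against 13.1 and 14.2 with guides 4 and 5, and at 1.28 against 1.71 and 2.26 in 769-P. Where it was low, the distance was larger: 0.273 against 1.29 and 0.576 CPM in CAKI-2, and 0.128 CPM (3 counts) against 0.713 and 0.342 in A498. The log2 fold change was 1.70 in CAKI-2 (SE 0.583, edgeR adjusted p = 1) and 2.01 in A498 (SE 0.835, adjusted p = 0.880), where the ratio of CPM from counts was 4.14 (95% exact interval 1.28 to 21.3). The mean over lines was 1.23 (SE 0.293, adjusted p = 0.6).

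SCN2A, a sodium channel of axons whose exons also overlap an annotated gene on the same strand, rested on few counts outside A498 and CAKI-2. It had 32 counts in the A498 control against 70 and 125, and 57 in CAKI-2 against 57 and 76, or 1.56 against 1.99 and 1.75 CPM. In 786-O it had 0 counts in the control against 2 and 1, and in 769-P 1 against 4 and 4. The ratio of CPM from counts in 769-P was 3.70, with a 95% exact interval of 0.497 to 164 that covers no change. The log2 fold change in A498 was 1.44 (SE 0.571, edgeR adjusted p = 0.880). The mean over lines, 1.80 (SE 0.818, adjusted p = 0.901), includes the 786-O control at 0 counts and was 1.16 without 786-O. CHGA in A498 was at 5.06 CPM in the control, 14 in sgKDM5C 4 and 7.65 in sgKDM5C 5 (log2 fold change 1.10, SE 0.391, adjusted p = 0.880), and in CAKI-2 at 134 CPM against 102 and 148.

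The repressor and its corepressor had smaller values. REST had a mean log2 fold change of 0.15 (SE 0.103, adjusted p = 0.901) and RCOR1 of 0.16 (SE 0.098, adjusted p = 0.901). REST in A498 was at 18.6 CPM in the control against 21.4 and 23.2, and RCOR1 at 12.2 against 15.9 and 18.7, the latter with a log2 fold change of 0.51 (SE 0.203, unadjusted p = 0.0256, adjusted p = 0.880). None of 22 REST cofactors and regulators passed the study thresholds in any of the comparisons with guides, and their median mean effect was 0.00. Of 39 further neuronal genes, 24 were tested, and their median mean effect was 0.13, with 0 past the study thresholds. In single lines AP3B2 was higher in 786-O (3 counts in the control against 22 and 9, log2 fold change 2.22), and RUNDC3A and DCX in CAKI-2 (-1.09 and -1.65) and CHRNB2 in A498 (-1.78) were lower at these thresholds, with adjusted p between 0.833 and 1.

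**Figure D4:**
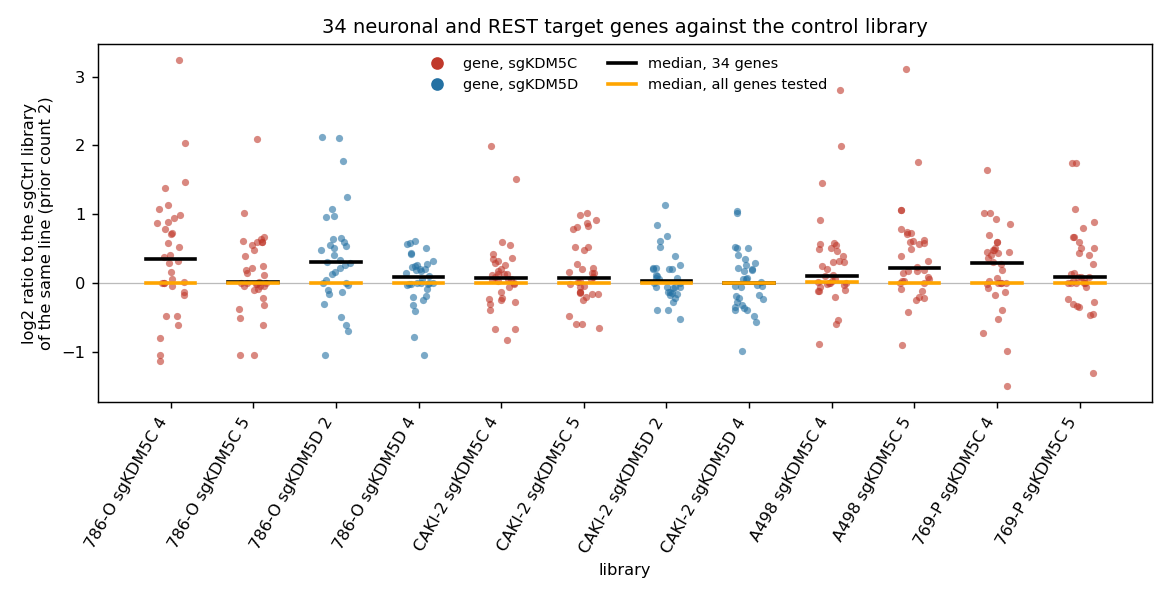
Log2 ratio of each of the 34 genes tested to the sgCtrl library of its line (vertical axis, prior count 2) in the 12 libraries with guides against KDM5C (red) or KDM5D (blue). Black bars are medians of the 34 genes and orange bars medians of all genes tested. The black bars reach 0.347 in 786-O sgKDM5C 4 and 0.296 in 786-O sgKDM5D 2, and the 2 guides of a target differ in 786-O.

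Single libraries carried part of what was seen in 786-O. The median log2 ratio of the 34 genes to the control was 0.347 with sgKDM5C 4 and 0.008 with sgKDM5C 5, with KDM5C transcript at 26.2% and 47.4% of control in these libraries. More than 1 above the control on the log2 scale were 6 of 34 genes with sgKDM5C 4 (SCN3A, NETO1, CELSR3, NEFM, NPTXR and RYR2, background 5.40%) and 2 of 34 with sgKDM5C 5 (CHGA, at 2 counts, and RYR2, background 2.38%). Of the 5 libraries of this line, sgKDM5D 2 had the highest level for 14 of 34 genes (41.2%), against 20.2% of all genes, and sgKDM5C 4 for 9 (26.5%, background 29%). In the other lines the median ratio was between 0.070 and 0.288 with each guide against KDM5C.

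The third question was whether guides against KDM5D did the same. These comparisons used the same control libraries as those above, so both kinds of difference move together with that control. No gene of the set passed the adjusted threshold with edgeR or DESeq2 in 786-O (background 0.0149%) or in CAKI-2 (background 0%). With edgeR 1 of 34 had an unadjusted p under 0.05 in 786-O (background 1.82%) and 1 in CAKI-2 (background 0.773%). The difference of this effect between both lines passed the adjusted threshold for none of the 34 with either tool (background 0.00496%), and for 2 the unadjusted p was under 0.05 with edgeR (background 1.47%). The study thresholds were passed by NPTXR in 786-O (background of higher genes 0.818%) and by TUBB3 in CAKI-2 (0.397%). They are those that the study used for guides against KDM5C. For guides against KDM5D, in other libraries, the study used a stricter, adjusted p and a smaller fold change. The median log2 fold change was 0.190 in 786-O and -0.011 in CAKI-2, with 24 and 17 of 34 genes above 0 (background 49.2% and 49.9%). The 786-O median was 0.186 over the 29 genes with counts in both groups. It was 0.088 without sgKDM5D 2, with 18 of 34 above 0, and 0.275 without sgKDM5D 4.

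NPTXR, a receptor of neuronal pentraxins with an intronic RE1 match, was at 9.59 CPM in the 786-O control, 32.9 in sgKDM5D 2 and 11.6 in sgKDM5D 4. The log2 fold change was 1.22 (SE 0.471, edgeR adjusted p = 1). It rested on sgKDM5D 2: without that library it was 0.28, and without sgKDM5D 4 it was 1.76. In CAKI-2 the gene was at 54.6 CPM in the control against 52.5 and 42.4. DLG4 (6.77 CPM against 7.43 and 8.46) and BRINP1 (33.4 CPM against 41.8 and 31.2) had log2 fold changes of 0.23 (SE 0.335) and 0.13 (SE 0.257) in 786-O. These 3 genes were looked up because the study names them for 786-O cells with guides against KDM5D, in other libraries.

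TUBB3, the neuronal β-tubulin, was at 0.601 CPM in the CAKI-2 control (22 counts), 1.40 in sgKDM5D 2 and 1.31 in sgKDM5D 4. The log2 fold change was 1.17 (SE 0.442, edgeR adjusted p = 1), and both sgKDM5C libraries of the line also lay above the control, at 0.942 and 1.08 CPM. In 786-O it went the other way, with 4.21 CPM in the control against 3.39 and 3.35. Its exons overlap an annotated gene on the same strand, as do those of NETO1, SCN2A, L1CAM, SNAP25 and SYN1, so reads of these genes may be shared. RYR2 with guides against KDM5D had a log2 fold change of 0.82 in 786-O (SE 0.538; 1.55 and 1.10 CPM against 0.752) and 0.06 in CAKI-2 (SE 0.325; 25.5 and 25.0 CPM against 24.2).

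Guides against KDM5C were also set directly against guides against KDM5D, 2 libraries against 2, with no control library involved. RYR2 in 786-O was the 1 gene of the 34 that passed the adjusted threshold (background 0.0644%), with a log2 difference of 2.06 (SE 0.338, edgeR adjusted p = 0.0479). Its sgKDM5C libraries (7.69 and 3.45 CPM) lay above its sgKDM5D libraries (1.55 and 1.10 CPM) without overlap. The call was lost in 11 of 17 alternatives, all of them among the 12 fits without 1 library each, and the adjusted p of the 17 ranged from 2.24e-12 to 0.249. It was 1.39 (adjusted p = 0.116) without sgKDM5C 4 and 2.31 (adjusted p = 0.249) without sgKDM5D 2. In CAKI-2 the log2 difference was 1.22 (SE 0.266, adjusted p = 0.345), with 69.0 and 49.0 CPM against 25.5 and 25.0. No gene of the set passed the adjusted threshold there with edgeR (background 0%, with 1 at an unadjusted p under 0.05, background 3.38%), and 1, RYR2, did with DESeq2.

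In 786-O 5 of 34 had an unadjusted p under 0.05 (background 4.78%). At the study thresholds, RYR2 and CELSR3 were higher with guides against KDM5C in 786-O (background 1.44%) and RYR2 in CAKI-2 (background 0.942%). CELSR3, a cadherin of axon guidance, was at 14.4 CPM in sgKDM5C 4 but 4.99 in sgKDM5C 5, against 5.33 and 3.86 with guides against KDM5D and 5.15 in the control. Its log2 difference of 1.08 (SE 0.348, edgeR adjusted p = 0.635) was 0.13 without sgKDM5C 4. L1CAM was lower in 786-O with guides against KDM5C (2.90 and 2.62 CPM) than with those against KDM5D (5.16 and 4.93), by a log2 difference of -0.87 (SE 0.246, adjusted p = 0.499). Over the 34 genes the median difference was -0.051 in 786-O and 0.038 in CAKI-2, with 16 and 19 above 0 (background 50.3% and 49.5%). The 786-O median turned positive without sgKDM5D 2 (0.312, 21 of 34 above 0) and without sgKDM5C 5 (0.009). In 786-O, 8 genes had both sgKDM5C libraries above both sgKDM5D libraries (background 12%) and 4 had them below (background 12.3%).

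Among the genes of the other lists, AP3B2 (1.25), MAPK8IP2 (1.16) and the renal transporter gene SLC34A1 (1.10) had higher levels in 786-O with guides against KDM5C than with those against KDM5D at the study thresholds. DCX (4 and 1 counts) and POU3F2 (1 and 4 counts) passed them too, with 0 counts in the control and in both sgKDM5D libraries, so no fold is given. RUNDC3A was lower (-2.17) on few counts, 2 and 0 with guides against KDM5C and 6 and 4 with those against KDM5D. In CAKI-2, SYN2 was higher (1.55) and DCX lower (-2.18). Against the control in 786-O, MAPK8IP2 was lower with guides against KDM5D (-1.10) and SLC34A1 higher with guides against KDM5C (1.28). All values are log2 differences, and every adjusted p was above 0.05.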

How the data were processed

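RNA was extracted with NucleoSpin kits, and TruSeq Stranded libraries were sequenced paired-end on an Illumina NovaSeq. Whole-number counts per gene and library were used as deposited by the authors, with no normalization. The submitters' processing notes name Trimmomatic 0.38, STAR 2.5.2b and GRCh37, while the counting tool, annotation release and strand setting are not given in the sources used here. Header names stood 1 field left of their columns and were shifted back. IDs were matched to GENCODE (lifted to GRCh37) for 55538 of 57773 genes, exon lengths being the union of annotated exons. Sequences came from that genome and from RefSeq (GRCh38.p14).

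Tests were quasi-likelihood F-tests in edgeR 4.0.16 under R 4.3.3, after TMM scaling. A single fit held the 16 libraries as 10 means, 1 for each line and genotype, with 6 residual degrees of freedom, for the 20175 genes with at least 60 counts in all. Benjamini-Hochberg adjustment was made within each comparison, across every gene tested. Since each control is 1 library, the spread came from groups with 2 guides (biological coefficient of variation 15.2%). Guides are separate transductions of a line, so p-values measure the spread between guides. The p under 0.05 used by the study for guides against KDM5C was taken as unadjusted, since it is not said which it was. The same thresholds were applied here to guides against KDM5D. Line levels averaged the sgCtrl and sgKDM5C libraries. A prior count of 2 was added for log2 ratios of 1 library to another. Intervals of ratios to a control with 1 to 3 counts were exact binomial ones (95%).

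The genes, lists and comparisons were chosen with earlier results of these data known. Full statistics are given for REST, RCOR1, the genes past the study thresholds or the adjusted threshold, and the 5 genes named earlier (DLG4, NPTXR, BRINP1, NETO1, RYR2). Alternatives were RLE size factors, DESeq2 1.42.0, other filters, a block for guide number, fewer libraries and, chosen after seeing the data, an additive fit of line and genotype, the wider RE1 window, and medians without genes at 0 counts in a group. The fits were tested on simulated data, in which genes above a minimum mean count were changed with guides against KDM5C. For sgKDM5C against sgCtrl in 786-O, 33 of 90 genes changed by 1 on the log2 scale were called, and 88 of 110 changed by 2. For the mean over lines, 70 of 90 and 101 of 110 were called. A single line can thus miss changes of that size. Some genes of the other lists are not reported here.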

Additional observations from a re-analysis of the deposited data

Results flagged for a closer look

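For 8 combinations of gene and guide target, both libraries of one line lay above its control and both of another below it. NETO1 with guides against KDM5C was above the control in 786-O, A498 and 769-P and below it in CAKI-2 (unadjusted p of the difference between lines 0.000319, edgeR adjusted p = 0.804). TUBB3 with guides against KDM5C was above the control in CAKI-2 and below it in 786-O (unadjusted p = 0.262, edgeR).

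With guides against KDM5D, TUBB3 was above the control in CAKI-2 and below it in 786-O (unadjusted p of the difference 0.0190, edgeR), and NPTXR was above it in 786-O and below it in CAKI-2 (unadjusted p = 0.0391, edgeR). The same direction as for NPTXR was seen for NETO1 (0.183), REST (0.331) and RCOR1 (0.392), and that of TUBB3 for NRXN3 (0.251), all unadjusted p of the edgeR test. The adjusted p was 1 for each of these 7. Every such direction rests on 1 control library per line.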

How the results depend on the processing

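No gene of the set past the study thresholds in a comparison, nor REST or RCOR1 for the mean effect, changed direction under any alternative. With edgeR and an adjusted p under 0.05, the replicate block left all counts of called genes of the set as they were (0 for each comparison with sgCtrl, 1 for sgKDM5C against sgKDM5D in 786-O, 33 for the level between lines). Guide numbers do not pair the libraries: the difference between guides 4 and 5 correlated between lines with r from -0.223 to 0.291 over genes. DESeq2 called 1 gene for sgKDM5C in 786-O, 2 for the mean effect, 1 for sgKDM5C against sgKDM5D in CAKI-2 and 1 for the difference of the sgKDM5C effect between lines. It put 0 past the study thresholds for the difference of the sgKDM5D effect between lines, where edgeR put 2. Without a filter on low counts, edgeR called 1 for sgKDM5C in each of 786-O, CAKI-2 and A498, 3 for the mean effect, 1 for sgKDM5D in 786-O, 3 and 1 for sgKDM5C against sgKDM5D in 786-O and CAKI-2, and 2 and 1 for the differences of the sgKDM5C and sgKDM5D effects between lines, and 4, 3 and 4 passed the study thresholds for sgKDM5C in 786-O, sgKDM5D in 786-O and the sgKDM5D difference. With filterByExpr 1 was called for the mean effect. At the study thresholds the mean effect kept 1 gene without A498 and 1 in the additive fit, against 4. The cause of these shifts was not tested.

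Over the fits without 1 library each, the called genes numbered 0 to 2 for the mean effect, 0 to 2 for sgKDM5C in 786-O, 0 to 1 in A498, 0 to 3 for sgKDM5C against sgKDM5D in 786-O, 0 to 1 in CAKI-2, and 0 to 2 for the difference of the sgKDM5C effect. Those past the study thresholds numbered 1 to 6 for sgKDM5C in 786-O, 1 to 2 in both CAKI-2 and 769-P, and 2 to 4 in A498, 2 to 5 and 0 to 2 for sgKDM5C against sgKDM5D in 786-O and CAKI-2, 0 to 4 and 0 to 1 for sgKDM5D in 786-O and CAKI-2, and 1 to 5 for the sgKDM5D difference. Requiring 0.5 CPM in place of 1 CPM put 29 genes on in CAKI-2, 27 in A498, 20 in 786-O and 18 in 769-P, and 2 CPM put 22, 19, 15 and 12 on. The shares of all genes on at these limits are not given. Depth limits the genes with a few counts, among them SCN2A in 786-O and 769-P, NETO1 in A498 and 769-P and NRXN3 in A498.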
